A study of Mus musculus with 8 samples.

Results

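The comparison described here set lymph node samples from Aire-knockout mice against lymph node samples from wild-type mice. It took every array whose title named the lymph node, 4 of the 8 arrays of the study, with 2 arrays of each genotype named A and B. The other 4 arrays held spleen samples of the same genotypes. Each array was an Affymetrix expression array that gave 1 signal per probe set, a group of short probes against one transcript, on a linear scale. The labels gave tissue, genotype and letter only: no allele, strain, age, sex, number of animals or sorted cell type. Lymph node below therefore means a sample from that tissue, which need not be whole tissue. Nothing in the labels says how many animals arrays A and B of a group came from, so the p-values below measure only the spread between these samples. The sex-linked signals given below differed between A and B, so the arrays of a group were not repeats of the same RNA sample.

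Aire, the autoimmune regulator, is a nuclear protein that drives the low-level transcription of many tissue-restricted genes in medullary epithelial cells of the thymus. Peptides of those proteins are shown to developing T cells, and T cells that bind them strongly are removed or diverted. Cells that express Aire are also found outside the thymus, in lymph nodes and spleen, where they carry MHC class II and features of both dendritic and epithelial cells. The comparison asks which transcripts differ in lymph node samples when Aire is missing.

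The arrays were checked first. The median signal of the 4 lymph node arrays lay between 55.4 and 65.3, and the 2% trimmed mean was 250 on each. Signals of the 3' control probe set over those of the 5' set were 1.01 to 1.13 for Actb and 3.12 to 4.53 for Gapdh. Over tested probe sets the Pearson correlation of log2 signals was 0.903 between the wild-type arrays and 0.906 between the knockout arrays, while the 4 correlations across genotypes ran from 0.872 to 0.921. Arrays of the same genotype were thus not closer to each other than to arrays of the other genotype. Xist, an RNA that coats the inactive X chromosome, gave 7851 and 3350 in wild-type arrays A and B against 6943 and 23.3 in knockout arrays A and B. The Y-linked gene Eif2s3y had signals of 4.21, 1590, 569 and 1999 in the same order. Wild-type A therefore carried the female pattern, knockout B the male pattern, and the other two arrays both transcripts. The spleen arrays with the same letters carried the same patterns, and the labels do not say whether they came from the same animals. The mix of sexes differed within each genotype, and its part in the differences below was not tested beyond the fit with a Y-linked covariate given with the processing alternatives.

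Genes of mature, antigen-presenting cells gave high signals on all 4 arrays. Ccr7, the receptor that guides dendritic cells and T cells into lymph nodes, had signals of 11940 and 13865 in wild-type against 9002 and 10599 in knockout arrays. H2-Aa, a chain of MHC class II, had 12153 and 13026 in wild-type against 11624 and 11512 in knockout. Markers of lymphocytes, the main cells of a lymph node, varied from gene to gene. Cd3d, part of the T cell receptor complex, had 67.6, 95.2, 56.7 and 97.2 in wild-type A and B and knockout A and B, and the B cell surface protein Ms4a1 had 66.4, 32.9, 160 and 27.7. The interleukin 7 receptor chain Il7r, also on the T cell list, had 4635, 4574, 2428 and 4301. The 10 T cell markers summed to 7703 and 7272 in wild-type A and B and 6519 and 7124 in knockout A and B. Il7r made up a large part of each of these sums. The 9 B cell markers summed to 480 to 1374 on the 4 arrays. The labels do not mention a step that would remove lymphocytes, nor which cells made up the samples. The keratin Krt5, a marker of medullary thymic epithelium, was under the floor described next on all 4 arrays.

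Differences between genotypes were computed on log2 signals after signals under 10.2, the 20th percentile, had been raised to that value. They were tested by limma for the 23577 probe sets, of 45037 without control sets, that exceeded the median signal of 61.1 on at least 2 of the 4 arrays. At a Benjamini-Hochberg adjusted p under 0.05, 1 probe set passed, 0.00424% of those tested. At an unadjusted p under 0.05, 623 probe sets were higher in the knockout (2.64%) and 472 were lower (2%), 1095 in all where 1179 would be counted by chance. The groups did not overlap, meaning that both knockout arrays lay on the same side of both wild-type arrays, for 3579 probe sets with the knockout higher (15.2%) and 3746 with it lower (15.9%). The median difference was 0.00 and the median SE 0.36, so the arrays could not show small differences. The median absolute difference between arrays A and B was 0.40 in wild-type and 0.43 in knockout. Differences over 1 on the log2 scale were more often toward the knockout, with 1014 probe sets higher and 617 lower.

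The probe set that passed, 1456182_x_at, has no gene name in the table used here. Its signals were 1.01 and 1.80 in wild-type A and B against 2053 and 1802 in knockout A and B. Both wild-type arrays were under the floor and both knockout arrays were bright, a knockout signal at least 188-fold that of the wild-type by limma on the floored scale (adjusted p = 0.0498, Benjamini-Hochberg). The set met the filter through the knockout arrays alone. The floor gave both wild-type arrays the same value, so they added no spread to its test. With no floor 0 probe sets passed. With either knockout array left out no probe set was called by limma, at differences of 7.46 without knockout A and 7.65 without knockout B. At an unadjusted p under 0.05 there were 691 probe sets without knockout A and 1146 without knockout B. The spread then came from the wild-type arrays and the prior, and the lone knockout array was assumed to vary like them. Without wild-type A 4 probe sets passed, and without wild-type B 2. The probe sets with the next smallest p, 1433438_x_at and 1456456_x_at, also had no gene name. The first of these had 15.2 and 8.95 in wild-type against 1911 and 1785 in knockout (adjusted p = 0.0671 by limma). The other had 11.4 and 6.49 in wild-type against 363 and 378 in knockout (adjusted p = 0.106 by limma). All 3 sets were dim on both wild-type spleen arrays and bright on both knockout spleen arrays, with 1456182_x_at at 0.447 and 4.28 against 4290 and 4422. They were described after their values were seen.

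**Figure D1:**
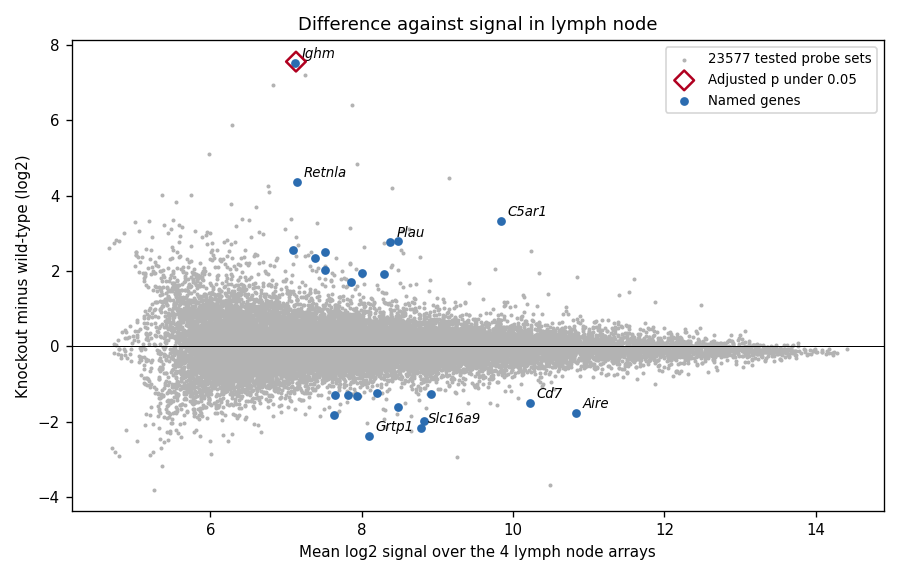
Difference between knockout and wild-type lymph node (log2) against the mean log2 signal of the 4 arrays, 1 grey point for each of the 23577 tested probe sets. The open diamond is the 1 probe set past the adjusted threshold, at a difference of 7.56, where the point of Ighm lies almost on it. Blue points are the 24 named genes, which lie at or beyond the edge of the probe sets of like signal.

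Aire itself was the check of the genotype labels. Its probe set, 1419241_a_at, had signals of 3380 and 3322 in wild-type A and B against 864 and 1144 in knockout A and B. The knockout arrays were lower on both, with no overlap, but the signal was not absent. The knockout minus wild-type difference was -1.75 ± 0.31 (SE, n = 2 arrays per group), 3.37-fold lower, with a 95% interval of ± 0.80 around it (adjusted p = 0.857 by limma). With 2 arrays against 2 an exact two-sided permutation test has 6 assignments and cannot go below 0.333, the value it gave for Aire. Of the tested probe sets 87 were lower in the knockout by more. Which part of the gene was deleted, and whether the probes lie within it, was not stated in the labels. The difference for Aire in spleen was -1.62, and the effects in the tissues differed by -0.14 ± 0.67 (adjusted p = 1 by limma).

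The named genes were the 12 in each direction with the smallest unadjusted p among those whose groups did not overlap and whose brighter group exceeded a signal of 242 on both arrays. These values chose them, so their separation is a description and no support. None of the 24 passed the adjusted threshold by limma (adjusted p 0.549 to 1), and "higher" and "lower" below describe the means of these arrays. In bulk samples fewer cells of a type and less RNA per cell cannot be told apart.

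**Figure D2:**
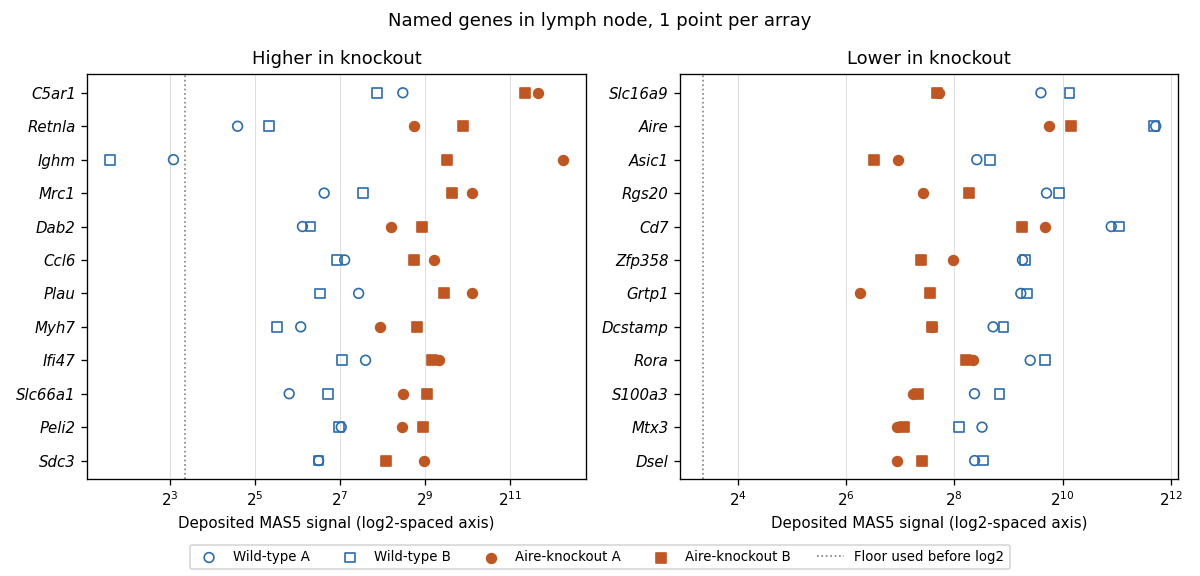
Deposited signal of the 12 named genes higher in knockout lymph node (left) and of the 12 lower (right), on a log2-spaced axis. Open blue symbols are wild-type and filled orange symbols knockout, circles array A and squares array B, and the dotted line is the floor of 10.2. By the rule of choice no gene overlaps between genotypes; the wild-type signals of Ighm lie under the floor, and those of Aire are 3380 and 3322.

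Genes known from macrophages were among the higher group. C5ar1, the receptor for the complement fragment C5a on myeloid cells, had 357 and 234 in wild-type against 3238 and 2619 in knockout, a difference of 3.33 ± 0.36 or 10.1-fold. A second C5ar1 probe set had 36.0 and 41.5 against 65.3 and 82.9, 1.90-fold more, and the mean over both sets was a difference of 2.13. The adjusted p of the first set was 0.549 by limma, and it passed when the prior variance was fitted as a trend on signal with outliers down-weighted. Mrc1, the mannose receptor of macrophages and some dendritic cells, had 99.2 and 187 in wild-type against 1102 and 800 in knockout, 6.90-fold more. Retnla, a secreted protein of alternatively activated macrophages, was dim in wild-type at 24.2 and 40.5 and reached 427 and 956 in knockout, a difference of 4.35 ± 0.52. The endocytic adaptor Dab2 had 69.7 and 79.5 against 293 and 484, and all 4 of its probe sets were higher without overlap. Plau, the urokinase that activates plasminogen, had 174 and 92.4 against 1092 and 694, a difference of 2.78 ± 0.46.

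Signalling genes and others completed the higher group. The chemokine Ccl6 had 138 and 122 in wild-type against 590 and 431 in knockout, 3.88-fold more. Ifi47, an interferon-inducible GTPase, had 195 and 133 against 643 and 578, 3.79-fold more. Peli2, a ubiquitin ligase of the Toll-like receptor pathway, had 131 and 127 against 354 and 497, and its 3 probe sets were each higher without overlap. The cardiac and slow-muscle myosin heavy chain Myh7 had 67.7 and 46.0 against 246 and 446. The lysosomal amino acid transporter Slc66a1 had 56.1 and 105 against 359 and 526. For the proteoglycan Sdc3 the probe sets disagreed. The chosen one had 90.6 and 90.5 against 502 and 270, a difference of 2.03 ± 0.40, while another was lower by -2.07 and the third overlapped.

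Ighm, the heavy chain of IgM, also met the rule and was named by the qualifying probe set with the smallest p among its 11. That set had 8.53 and 3.04 in wild-type, both under the floor, and 4831 and 737 in knockout, at least 185-fold more. Of the 11 sets 6 were higher in the knockout without overlap, 1 was lower and 4 overlapped. The brightest set overlapped, with 2264 and 398 in wild-type against 1669 and 182 in knockout. Immunoglobulin probe sets can detect related heavy chain transcripts, and which transcript each detects was not tested. Knockout array A was the brighter knockout array for the chosen set, and in spleen knockout A had 8779 while knockout B had 14.6. B cell markers summed to more on array A in both genotypes. The summed signal of the 9 measured B cell markers was 945 and 480 in wild-type A and B against 1374 and 555 in knockout A and B. Their part in the Ighm values was not tested.

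The genes lower in the knockout came from several families. Slc16a9, a member of the monocarboxylate transporter family, had 777 and 1121 in wild-type against 210 and 206 in knockout, a difference of -2.17 ± 0.33 or 4.49-fold, and its 3 probe sets were each lower without overlap. Grtp1, a gene with a domain of Rab GTPase-activating proteins, had 600 and 651 against 76.5 and 188, a difference of -2.38 ± 0.50. Rgs20, a regulator of G protein signalling, had 834 and 980 against 170 and 307, though 2 of its 3 probe sets overlapped. The acid-sensing ion channel Asic1 had 341 and 405 against 124 and 90.9, 3.50-fold less. Cd7, a surface protein of T and natural killer cells, was bright at 1913 and 2115 in wild-type against 817 and 611 in knockout, 2.85-fold less.

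The remaining genes lower in the knockout have varied roles. The zinc finger gene Zfp358 had 613 and 636 in wild-type against 251 and 167, 3.05-fold less. Dcstamp, a membrane protein of dendritic cells and of fusing osteoclast precursors, had 421 and 481 against 191 and 192, a difference of -1.23 ± 0.29. The nuclear receptor Rora had 677 and 821 against 327 and 296 by its chosen probe set, but its 9 probe sets were split into 1 higher, 3 lower and 5 overlapping. S100a3 of the S100 calcium-binding family had 331 and 456 against 150 and 161. The mitochondrial gene Mtx3 had 365 and 273 against 123 and 134 by its chosen probe set, while its other 2 sets overlapped and the mean over its sets was a difference of -0.33. Dsel, an enzyme of dermatan sulfate synthesis, had 332 and 371 against 123 and 170.

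Lists of cell type markers and pathway genes were then read member by member, each gene by its brightest probe set. Over all 18161 measured genes, 46.2% had a higher mean and 48.0% a lower mean in the knockout, and the median difference was 0. Groups did not overlap with the knockout higher for 13.6% of them and lower for 14.7%. The shares given with each list below are to be read beside these. At an unadjusted limma p under 0.05, 2.56% of tested genes were higher and 1.99% lower. No member of any list passed the adjusted threshold, while 45 of the 280 tested members had an unadjusted limma p under 0.05. The lists were chosen with earlier results of these data known, so this count is a description and no support. They have 390 measured members, of which the others were too dim to be tested. A member under the filter signal on both arrays of a genotype was tested only if both arrays of the other genotype exceeded it. For such members the filter fixed the direction of the tested difference.

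**Figure D3:**
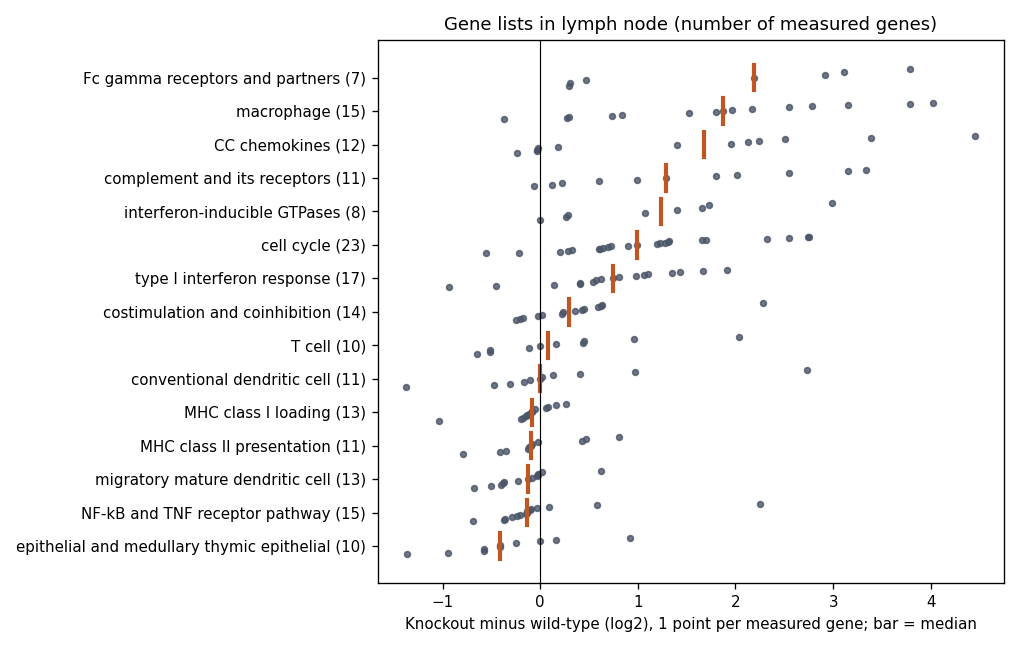
Knockout minus wild-type difference (log2) of each measured member of the lists, 1 point per gene, with the list median marked. The lists of Fc gamma receptors, macrophages, CC chemokines, complement and interferon-inducible GTPases have medians above 1, and those of migratory dendritic cells and MHC have medians between -0.13 and -0.09.

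Of 15 macrophage markers 14 had a higher mean in the knockout and 1 a lower one, and 6 did not overlap, all 6 higher (40%), while 5 had an unadjusted limma p under 0.05, all higher. The median difference was 1.87. Siglec1, the sialoadhesin of lymph node sinus macrophages, had 17.4 and 2.15 in wild-type against 292 and 160 in knockout. Fcgr1, the high-affinity IgG receptor, had 18.6 and 23.3 against 540 and 152. Adgre1, which encodes F4/80, had 58.0 and 31.0 against 229 and 159. These 3 met the filter through the knockout arrays alone, which fixed the direction of their tested differences in advance. They were dim in wild-type and separated in both knockout arrays. The C1q subunit C1qb behaved otherwise and overlapped, with 4689 and 588 in wild-type against 9637 and 3452 in knockout. The summed signal of the list was 8766 and 1724 in wild-type A and B against 21219 and 7942 in knockout A and B, so wild-type A lay above knockout B. Without wild-type B the list median was 0.44, and without knockout A it was 1.25. No macrophage marker was under the floor on all 4 arrays, though Vsig4 and Cd5l were each under it on 1 array of each genotype. The part of macrophage content in the other differences was not tested.

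The Fc gamma receptors and their partners, which bind IgG and signal through immunoreceptor motifs, were all 7 higher in mean, with 5 not overlapping (71.4%). Their median difference was 2.19, 0.86 without wild-type B and 1.36 without knockout A. The inhibitory receptor Fcgr2b had 21.6 and 14.5 in wild-type against 136 and 132 in knockout, a difference of 2.92 ± 0.34. Fcgr4 had 1.85 and 22.3 against 246 and 69.6, and Fcgr3 had 162 and 25.4 against 522 and 164. Fcgr2b and Fcgr4 met the filter through the knockout arrays alone. The shared gamma chain Fcer1g was bright in both genotypes, with 2125 and 1618 against 2410 and 2157. The receptors thus had differences over 2 on the log2 scale, and the signalling partners Fcer1g, Syk and Inpp5d had 0.30, 0.31 and 0.47. Of 11 complement genes 10 were higher in mean and 3 did not overlap, all higher (27.3%). Their list median was 1.29, and 0.39 without wild-type B. Beside C5ar1, the C3a receptor C3ar1 had 142 and 79.5 against 605 and 303.

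CC chemokines, secreted proteins that recruit leukocytes, differed among themselves. Of 12 measured, 8 had a higher mean and 4 a lower mean in the knockout. The 8 that were higher did not overlap (66.7%), and 6 of them had an unadjusted limma p under 0.05. The median difference was 1.68. Ccl8, a monocyte attractant, had 416 and 35.7 in wild-type against 4923 and 1453 in knockout, a difference of 4.46 ± 1.30. The monocyte attractant Ccl7 had 41.0 and 17.7 against 207 and 113. Ccl3 and Ccl4 had differences of 2.13 ± 0.46 and 2.24 ± 0.52. Ccl5 and Ccl22 overlapped: Ccl5 had 10345 and 12770 in wild-type against 8828 and 10715 in knockout, and Ccl22, a product of mature dendritic cells, had 6177 and 8562 against 6008 and 8357. Among 14 cytokines 7 were higher and 6 lower in mean, with a median of 0.09. Their groups did not overlap with the knockout higher for 5 (35.7%) and lower for 1 (7.14%). The anti-inflammatory Il10 had 44.3 and 19.5 against 133 and 154, a difference of 2.28 ± 0.48.

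The interferon-inducible GTPases, proteins that attack the membranes around intracellular microbes, were higher in mean for 7 of 8 measured members. Of the 8, 5 did not overlap, all higher (62.5%), each with an unadjusted limma p under 0.05. The median difference of the list was 1.23, between 0.94 and 1.42 when 1 array was left out. Gbp6 had 82.5 and 58.3 in wild-type against 222 and 239 in knockout, a difference of 1.73 ± 0.32. Irgm2 had 157 and 150 against 431 and 379, and Igtp had 308 and 193 against 541 and 487. Gbp7 had 177 and 123 against 789 and 273. These 4 and Iigp1, with a difference of 2.99 ± 0.71, were the members that separated. Gbp2, Gbp3 and Irgm1 overlapped, and for Gbp3 the values were 566 and 1021 in wild-type against 637 and 905 in knockout, a difference of 0.00. Close relatives in this family share sequence, and whether probe sets detect more than 1 of them was not tested.

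Promoter windows of some of these GTPases are shown as a description of a motif they share. The windows run from 250 bases before to 50 bases after the gene start, are from RefSeq on build GRCm38.p6, and are printed in the direction of the gene. The letters GAAA, then any 2 bases, then GAAA again, the core of the interferon-stimulated response element, were searched on both strands with overlaps counted, and matches are in capitals. Igtp lies on the plus strand at chr11:58199306-58199605, Irgm2 on the plus strand at chr11:58214727-58215026, Gbp7 on the plus strand at chr3:142530086-142530385 and Gbp3 on the plus strand at chr3:142559794-142560093.
Igtp: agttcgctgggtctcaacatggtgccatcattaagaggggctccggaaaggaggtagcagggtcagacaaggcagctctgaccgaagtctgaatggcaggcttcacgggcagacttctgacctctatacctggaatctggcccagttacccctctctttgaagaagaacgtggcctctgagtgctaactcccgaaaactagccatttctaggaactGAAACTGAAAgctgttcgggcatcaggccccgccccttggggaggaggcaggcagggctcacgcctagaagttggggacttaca
Irgm2: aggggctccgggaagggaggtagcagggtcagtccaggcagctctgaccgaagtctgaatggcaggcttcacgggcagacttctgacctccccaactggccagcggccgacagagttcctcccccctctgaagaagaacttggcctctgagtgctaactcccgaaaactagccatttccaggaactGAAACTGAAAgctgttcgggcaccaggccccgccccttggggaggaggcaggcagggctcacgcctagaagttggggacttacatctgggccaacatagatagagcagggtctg
Gbp7: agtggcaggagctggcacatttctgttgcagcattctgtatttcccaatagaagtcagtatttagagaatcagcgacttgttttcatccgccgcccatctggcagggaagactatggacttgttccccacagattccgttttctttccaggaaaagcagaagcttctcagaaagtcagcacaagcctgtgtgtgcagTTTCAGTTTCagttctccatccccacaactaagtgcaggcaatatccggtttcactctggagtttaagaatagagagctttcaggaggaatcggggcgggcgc
Gbp3: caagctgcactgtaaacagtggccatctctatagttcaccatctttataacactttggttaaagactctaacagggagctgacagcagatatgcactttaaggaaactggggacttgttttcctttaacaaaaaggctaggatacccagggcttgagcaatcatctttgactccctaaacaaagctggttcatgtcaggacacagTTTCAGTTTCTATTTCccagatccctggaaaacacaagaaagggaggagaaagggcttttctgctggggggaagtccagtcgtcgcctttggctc
The match lay 34 bases before the gene start in Igtp, 64 in Irgm2 and 53 in Gbp7, and Gbp3 had 2 overlapping matches 45 and 39 bases before it. A second Gbp3 window, at another annotated start, held none. All 6 members of the GTPase list with a window held a match, against 524 of the 14461 genes with a window on the array (3.62%). The differences of Gbp3 and Gbp7, which both held it, were 0.00 and 1.65. Any part of the motif in the differences was not tested. The letters TTCNNNGAA, the gamma-activated sequence, were in 3 of the 6 and in 8.57% of all. A match is a description of the letters in the window. No match of the interferon-stimulated core was found in the 10 named higher genes or the 9 named lower genes that had a window. Ifi47, an interferon-inducible GTPase that is not on the list, was among those higher genes without a match.

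Genes of the type I interferon response also differed among themselves. Of 17 measured, 15 had a higher mean and 2 a lower mean, and 10 did not overlap with the knockout higher (58.8%) and 1 with it lower. The median difference was 0.75, and 0.50 without knockout A. Those with the smallest p were dim in wild-type. Rtp4 had 39.3 and 21.2 in wild-type against 148 and 79.4 in knockout, Oas2 had 44.2 and 43.5 against 83.3 and 90.6, and the transcription factor Irf7 had 74.6 and 35.4 against 188 and 103. The members lower in mean were Mx1 and Rsad2: the antiviral GTPase Mx1 had 1871 and 2136 against 794 and 1376, a difference of -0.94 ± 0.38, and Rsad2 had 2052 and 3488 against 1442 and 2632. Of the 12 members with a promoter window 8 held the core of the interferon-stimulated response element.

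Cell cycle genes were higher in mean for 21 of 23 members, and 10 did not overlap, all higher (43.5%), with 5 at an unadjusted limma p under 0.05. The median was 0.99, 0.31 without knockout A and 0.44 without wild-type B. Bub1, a kinase of the spindle checkpoint, had 7.95 and 7.39 in wild-type, both under the floor, and 70.4 and 66.6 in knockout, at least 6.71-fold more. It met the filter through the knockout arrays alone. The replication helicase subunit Mcm5 had 454 and 318 against 1886 and 802, and Nusap1, a spindle protein, had 63.4 and 15.7 against 319 and 106. Mki67 and Pcna, the usual markers of cycling cells, overlapped, with Mki67 at 1389 and 1155 against 2275 and 1110. Knockout A had the highest summed signal of the list, 15571, against 8453 in knockout B, 8341 in wild-type A and 5885 in wild-type B. The Bub1 window, on the minus strand at chr2:127831810-127832109, is shown for its pair of CCAAT boxes, 68 and 42 bases before the gene start, in capitals on either strand.
Bub1: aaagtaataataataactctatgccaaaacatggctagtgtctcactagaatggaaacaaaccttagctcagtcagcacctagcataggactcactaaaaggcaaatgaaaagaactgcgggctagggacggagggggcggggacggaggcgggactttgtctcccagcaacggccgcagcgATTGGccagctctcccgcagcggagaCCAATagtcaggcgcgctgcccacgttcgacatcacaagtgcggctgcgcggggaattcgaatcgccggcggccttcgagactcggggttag
The CCAAT letters were in 18 of the 21 cell cycle genes with a window (85.7%) and in 6077 of the 14461 genes (42.0%). The letters TTTGAA of the cell cycle homology region were in 11 of the 21 (52.4%) and in 15.7% of all.

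Genes of antigen presentation and dendritic cell maturation had list medians near 0. Of 13 markers of migratory mature dendritic cells 11 had a lower mean and 2 a higher one, with 6 not overlapping and lower (46.2%) and 1 not overlapping and higher. The median was -0.13, and it was -0.40 without wild-type A and -0.28 without knockout B. Tnfrsf9, a costimulatory receptor, had 1639 and 2022 in wild-type against 960 and 1358 in knockout, a difference of -0.67 ± 0.34. Cd83, a maturation marker, had 8808 and 9234 against 6397 and 7492, and the difference of Ccr7 was -0.40 ± 0.30. These genes separated, with differences under 1 in size. Of 11 MHC class II genes 8 were lower in mean and 5 separated, all lower (45.5%), with a median of -0.10. Of all measured genes 14.7% separated with the knockout lower. Of 13 MHC class I loading genes 9 were lower in mean, with 4 separated and lower (30.8%) and 1 separated and higher. Their median was -0.09. Both medians were above 0, by less than 0.01, when 1 knockout array was left out. The peptide transporter subunit Tap2 had 310 and 284 against 182 and 115, a difference of -1.04 ± 0.35. Rfxap, a subunit of the factor that binds MHC class II promoters, had 185 and 214 against 123 and 108.

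Epithelial markers were lower in mean for 7 of 10 members, and 4 separated, all lower (40%), with a median of -0.41 that was -0.19 without wild-type A. Epcam, an adhesion protein of epithelia and of some dendritic cells, had 1568 and 1868 in wild-type against 467 and 941 in knockout, a difference of -1.37 ± 0.44. The keratin Krt8 had 1328 and 592 against 451 and 470. The summed signal of the list was 3362 and 2801 in wild-type against 1304 and 1720 in knockout. Of the other epithelial markers Krt5 was under the floor on all arrays and Krt18 overlapped. The part of the number of epithelial-like cells in the Aire values was not tested.

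The genes on a list of thymic tissue antigens were largely dim, and which of them depend on Aire was not tested. Of 21 with a probe set, 3 were under the floor on all 4 arrays and 5 were bright enough to be tested. With 12 higher and 6 lower in mean the median difference was 0.06. Groups did not overlap with the knockout higher for 3 (14.3%) and lower for 1 (4.76%). The milk protein Csn2 had 4.26 and 5.22 in wild-type, both under the floor, and 179 and 153 in knockout, at least 16.2-fold more (limma adjusted p = 0.265). It met the filter through the knockout arrays alone, and the floored wild-type arrays added no spread to its test. The neuronal calmodulin regulator Pcp4 had 17.8 and 49.3 against 123 and 99.3. The neuropeptide precursor Npvf was the 1 member lower without overlap, with 74.2 and 33.8 against 8.25 and 9.03, and it was too dim to be tested. Of 8 measured Aire and tissue-antigen regulators 7 were lower in mean, Aire among them, and the median was -0.28, which became 0.09 without wild-type B and -0.03 without knockout A.

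**Figure D4:**
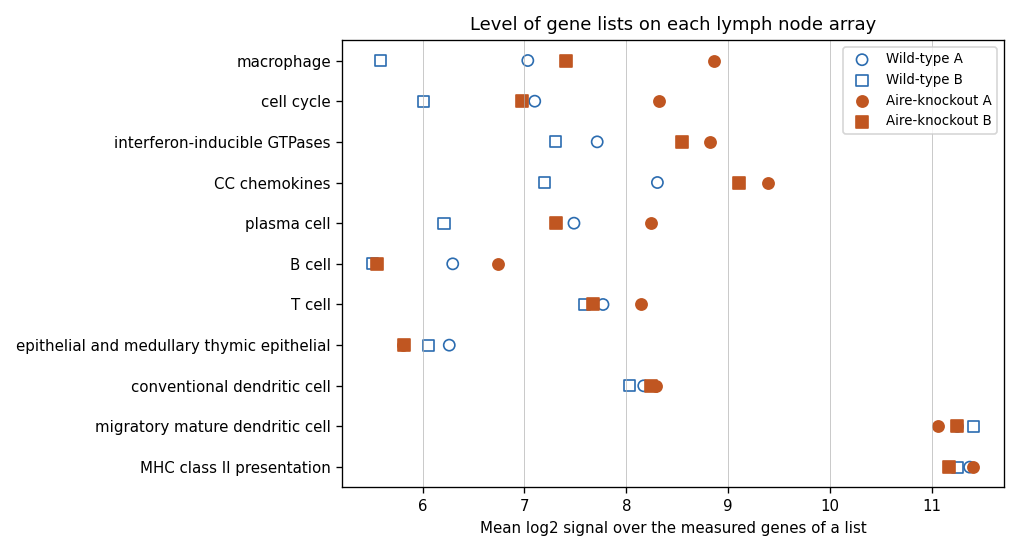
Mean log2 signal of selected lists on each of the 4 lymph node arrays, open symbols for wild-type and filled for knockout. For macrophage genes wild-type A, at 7.03, lies close to knockout B, at 7.41, while for interferon-inducible GTPases the genotypes are apart, at 7.31 to 7.71 and 8.54 to 8.82. The levels of the MHC class II list lie close together on all arrays.

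Other cell type lists were read in the same way. The T cell list had 5 of 10 higher and 5 lower, with a median of 0.08 that was -0.05 without knockout A. The conventional dendritic cell list had 5 higher and 5 lower of 11, with a median of 0.00. Plasma cell genes were higher for 8 of 9, with 3 separated, all higher (33.3%). Their list median was 0.89, and it was 0.13 without wild-type B and 0.20 without knockout A. The plasma cell gene Jchain overlapped, with 446 and 25.7 in wild-type against 1324 and 183 in knockout. In both genotypes array A was thus the brighter for plasma cell, macrophage and cell cycle genes.

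The knockout effect was set beside that in spleen for the same genes. Of the 12 genes named as higher 11 had a higher mean in knockout spleen too, and 9 separated there, where 18.6% of tested genes separated with the knockout higher. Of the 12 named as lower 11 had a lower mean in spleen and 7 separated, against 17.4% of tested genes. The spleen arrays were not used to choose the genes, but arrays of a letter shared their sex pattern across tissues, so the spleen samples may not be independent of the lymph node samples. A test of the difference between the tissues called 0 of 23577 probe sets by limma, with 857 at an unadjusted p under 0.05. C5ar1 had a difference of 5.95 in spleen, with signals of 11.5 and 22.9 in wild-type against 1772 and 571 in knockout. Ccl6 had a difference of 0.31 in spleen, with an effect 1.65 ± 0.52 larger in lymph node (limma adjusted p = 1). Grtp1 had -0.13 in spleen, where its 4 signals lay between 176 and 212 (limma adjusted p = 1 for the difference between tissues). Slc66a1 was the gene of the higher group with the other sign in spleen, -1.17, and Rora that of the lower group, 0.21.

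**Figure D5:**
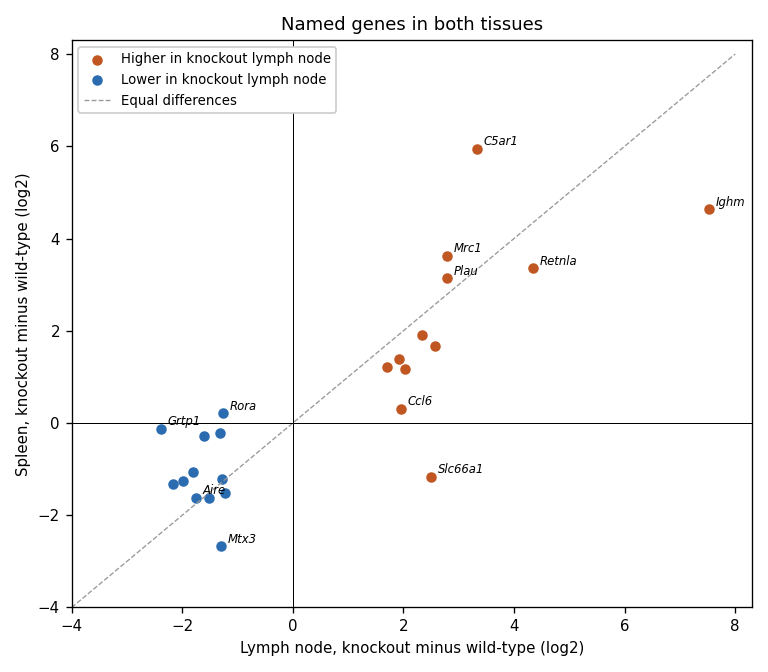
Knockout minus wild-type difference (log2) of the 24 named genes in lymph node (x axis) and spleen (y axis), orange for those higher and blue for those lower in knockout lymph node, with a dashed line of equal differences. The points lie in the same-sign quadrants except Slc66a1 and Rora; Ccl6 and Grtp1 lie near 0 in spleen.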

How the data were processed

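The values are the intensity signals deposited by the authors, 1 per probe set and array on a linear scale, made with MAS5 per the submitters' processing notes; the notes give no version. No further scaling was applied, since the 2% trimmed mean was 250 on every array. Of 45101 probe sets 64 controls were left out. Of the 45037 others 34945 carried 1 gene symbol in the platform annotation, 932 several and 9160 none; 59 symbols were updated. Signals were floored at 10.2 and taken to log2. Group means of the 4 lymph node arrays were fitted with limma 3.58.1 in R 4.3.3 (2 residual and 2.82 prior degrees of freedom) and adjusted by Benjamini-Hochberg at 0.05. A fit of all 8 arrays gave the difference between tissues. Intervals are at 95%, and the number of arrays limits the precision. Fits were tested on simulated data.

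The 24 genes were named by the rule given in the report, predicted transcripts left out, with up to 4 members per list by smallest p. Other genes and probe sets were named after their values were seen. The comparison, the 39 lists and the rules were chosen with earlier results of these data known. Lists were read over all measured members, by each gene's brightest probe set. Of 446 list entries 40 without a matching probe set are not analysed here. Alternatives were other normalizations, floors, filters, priors and probe set rules, a replicate block, each array left out, and a Y-linked covariate added after seeing the data.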

Additional observations from a re-analysis of the deposited data

Results flagged for a closer look

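Among 408 probe sets read for the lists and named genes, 6 had both knockout arrays on one side of both wild-type arrays in lymph node and on the opposite side in spleen. That is 1.47%, below the 3.09% of all 18161 measured genes (562), so the number is not unusual. No test of the difference between tissues passed for the 5 that could be tested (limma adjusted p = 1 for each). The neutrophil granule gene Ngp had a difference of -1.24 in lymph node and 2.49 in spleen; it was too dim for the filter, so its difference between tissues was not tested. Ly6d, a surface protein of lymphocyte precursors and epithelia, had -0.41 and 1.54. The chromatin remodeller Chd4 had -0.54 and 0.31. The chemokine Ccl9 had 0.18 and -0.67. The lysosomal protease Ctsh had 0.12 and -0.16, and the transcription factor Jun -0.17 and 0.18.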

How the results depend on the processing

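The number of called probe sets, 1 by the processing reported, was 3 with array medians made equal, 2 with quantile normalization, 0 with no floor, 2 with a floor at the 40th percentile, 0 with no filter, 3 with a filter at the 75th percentile, 3 with a trended and robust prior, 3 with the spread taken from all 8 arrays, 0 with 1 probe set per gene, 0 with probe sets averaged per gene and 4 with the Y-linked covariate, which was chosen after seeing the data. With 1 array left out it ran from 0 to 4. The letters A and B were not fitted as pairs in the processing reported, and the A minus B differences of the genotypes had a correlation of 0.268. The replicate block, which fits the letter, called 0 probe sets, with 1705 at an unadjusted limma p under 0.05. That last count was 1095 in the processing reported and 445 to 3086 over the alternatives. Of these 1095, 56.9% were higher in the knockout, against 27.9% without knockout A, 38.6% without knockout B, 76.0% without wild-type A and 70.5% without wild-type B, and 71.9% with the Y-linked covariate. The difference of Aire kept its sign and stayed short of the adjusted threshold under each alternative, and was -1.55 to -1.96 with 1 array left out. Of 380 values of the named genes under alternatives 377 kept sign and side of the threshold. Ighm was reversed to -0.79 with 1 probe set per gene and Sdc3 to -0.23 with the mean of its probe sets, since their probe sets disagree. C5ar1 passed with the trended and robust prior. Of 624 list medians 572 stayed within the spread between arrays and 52 moved, and apart from the sex-linked list no list with a median over 1 came under 0. The test between tissues called 0 probe sets under each alternative run on it. With 2 arrays a group, differences near the median SE of 0.36 could not be detected, and far larger ones also went uncalled. In the processing reported C5ar1, at 3.33 ± 0.36, did not pass (adjusted p = 0.549 by limma).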
